A study of Mus musculus with 8 samples.

Results

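The genes that build, sulphate and trim glycosaminoglycans were followed in C3H10T1/2 cells treated with bone morphogenetic protein 7 (BMP7) or with vehicle. The group was a list of 49 gene symbols chosen for their known function, and a gene was a member when a probe set of the array carried its symbol, or an older synonym, and no other gene. By this rule 43 of the 49 genes had a value, on 70 of the 22690 probe sets. Xylt1, Sulf1, Chsy1, Ust, Dse and Slc35d1 were not analysed here. C3H10T1/2 is an established mouse line of multipotent mesenchymal cells, and BMP7 is a secreted growth factor that signals through SMAD transcription factors. Cells at full confluence received 3.3 nM BMP7 (4 arrays, called BMP7 1 to 4) or vehicle alone (4 arrays, called Vehicle 1 to 4) for 3 days, and no other agent or allele is named for either group. Total RNA of each sample was hybridised to 1 Affymetrix Mouse 430A array. Both groups are a single cell line, and no label states that the numbered samples were separate cultures. The spread behind each p-value may therefore be technical.

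Glycosaminoglycans are long sugar chains. Heparan, chondroitin, dermatan and keratan sulphate are built in the Golgi apparatus on proteoglycan core proteins and carry sulphate groups, whose donor PAPS is made in the cytosol from imported sulphate. Hyaluronan is spun out at the plasma membrane with no core protein and no sulphate. The chains bind growth factors, BMPs among them, and sulphated chondroitin is the main source of the swelling pressure of cartilage.

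Of the 43 genes with a value, 35 lay above the signal filter and were tested, and 9 of them changed, where 3.13% of all 13576 tested probe sets were called in either direction. Papss2, Papss1, Slc26a2, Ugdh, Has2, Hs2st1 and Chst11 were higher after BMP7, and Sulf2 and Chst1 were lower. The 7 genes that rose were 20.0% of the 35, where 1.63% of the probe sets were called higher (1.58% with 1 probe set for each of 8330 genes). The 2 that fell were 5.71%, where 1.50% of tested probe sets were called lower (1.78% of genes). The log2 fold changes of the 35 ran from -1.71 to 2.21 with a median of 0.30. The median was 0.04 over all tested probe sets and 0.004 with 1 probe set for each of 8330 genes. The log2 fold change was positive in 25 of the 35, beside 53.5% of tested probe sets and 50.6% of genes. An unadjusted p under 0.05 was found in 16 of the 35, beside 21.8% of tested probe sets. The 26 other tested members did not pass the threshold, an adjusted p under 0.05 in limma over all tested probe sets, and 19 of the 35 had a log2 fold change under 0.5 in size.

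**Figure D1:**
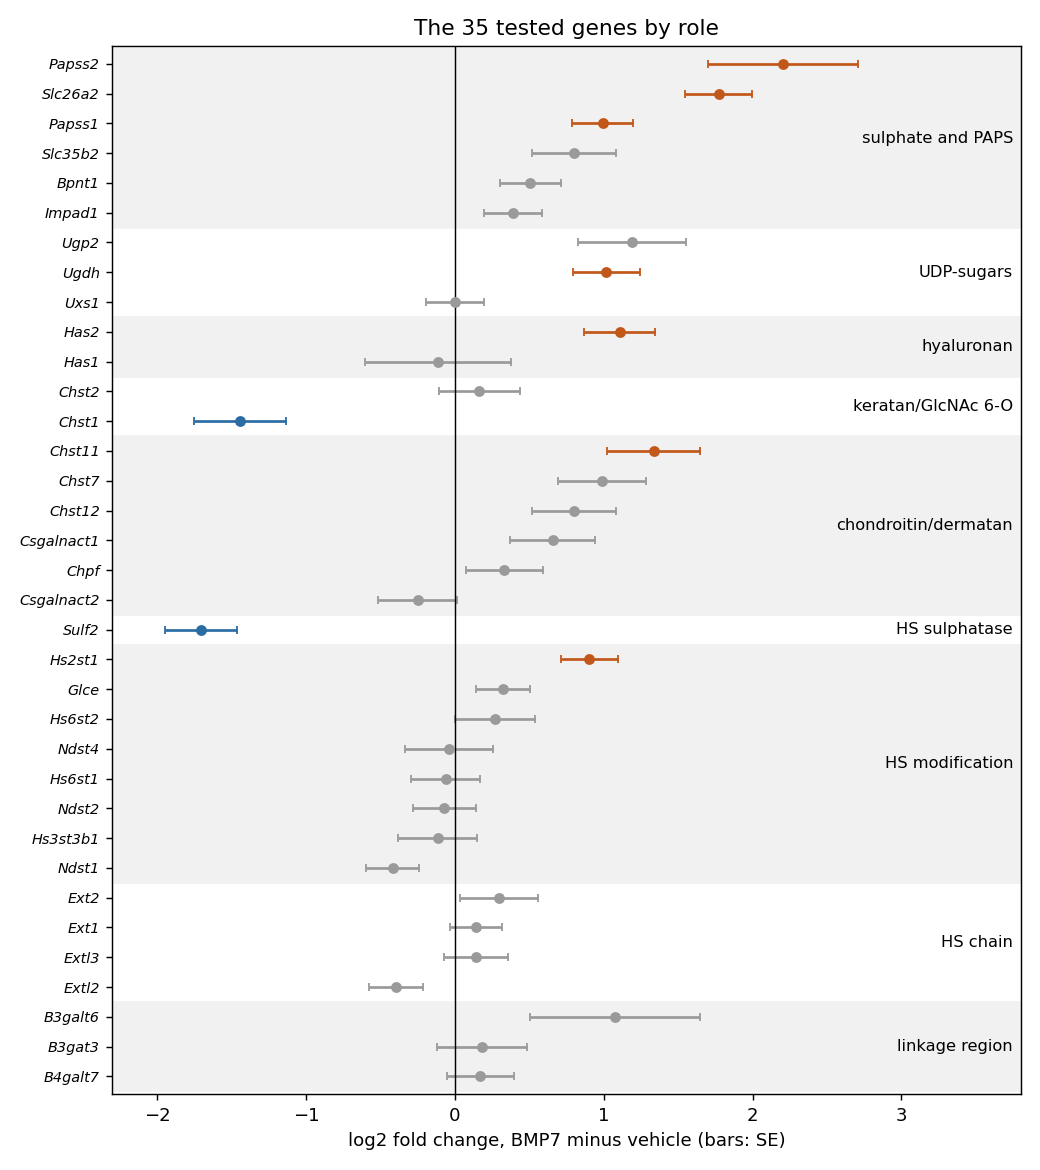
Log2 fold change (BMP7 minus vehicle, horizontal axis) of the 35 tested genes, grouped by role, with bars for the standard error and 4 arrays a group. Orange marks the 7 genes past the threshold that rose, blue the 2 that fell and grey the 26 that did not pass. All 6 tested genes of sulphate and PAPS supply lie to the right of 0, and Sulf2 and Chst1 lie farthest to the left.

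The vehicle arrays were the less uniform group. Pairwise correlations over tested probe sets ran from 0.855 to 0.944 among vehicle arrays and from 0.947 to 0.966 among BMP7 arrays, and Vehicle 3 had a 3'/5' signal ratio of 6.55 for Actb where the other 7 arrays had 1.17 to 1.40. The hybridisation controls added to each sample had a mean log2 signal of 11.92 to 13.25 on vehicle arrays and 11.72 to 11.96 on BMP7 arrays. The median SD of the log2 signals of the 35 members was 0.39 among vehicle and 0.23 among BMP7 arrays, beside 0.41 and 0.22 over all tested probe sets. As a check of the treatment, 5 of 6 tested BMP target genes rose. Among them Smad6 (log2 fold change 3.29, adjusted p 5.53e-05, limma), Id3 (1.36, adjusted p 0.00369) and Id1 (0.95, adjusted p 0.0492) passed, and Id2 (0.68, adjusted p 0.143) did not.

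Both the mesenchymal label and the presence of other cells were checked by marker genes. All 10 mesenchymal markers were above the filter. Their summed signal was 300995 to 408792 on vehicle arrays and 257739 to 300759 on BMP7 arrays. Col3a1 and Pdgfra were called lower after BMP7. The other probe set of Pdgfra, 1421916_at, gave a log2 fold change of -0.15 and did not pass (adjusted p 0.842 in limma). Pdgfrb was not called on the probe set that represents it, while its 1417148_at was lower (-0.87, adjusted p 0.0387 in limma). Of 14 chondrocyte markers 7 were tested, all with a positive log2 fold change, and Col2a1, Sox9 and Col9a1 were called higher. The other probe set of Sox9, 1451538_at, gave 1.49 and did not pass (adjusted p 0.0569 in limma). The summed signal of the list was 11769 to 30056 in vehicle and 43162 to 74533 in BMP7. Col2a1 alone, with means of 5750 and 29118, made up much of that sum. Below the filter, Comp, Matn1, Col9a3 and Snorc had the lower mean in BMP7, and Matn3 and Hapln1 the higher. Col9a2, a defining cartilage collagen, stayed near the floor in both groups, at 17.1 and 20.0. No epithelial marker of 8, 1 endothelial marker of 8 and 4 macrophage markers of 12 passed the filter, none of these was called, and the macrophage sum was 3404 to 4716 in vehicle and 3292 to 4588 in BMP7. Fewer cells of a type and less RNA per cell cannot be told apart in these bulk samples, and the part of the shift in chondrocyte markers in any result below was not tested.

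Promoters are shown for the 6 genes that changed, have a window and make the sulphate donor, use it on a chain or take sulphate off the finished chain. Each is the RefSeq window from 250 bases before to 50 after an annotated start (GRCm38.p6), 5′ to 3′ on the gene's strand. Papss2, Papss1 and Sulf2 have 2 windows each, and that of the start farthest upstream was chosen for printing after the motifs were counted. Capitals mark CAGAC or its reverse complement GTCTG, the short SMAD-binding element, and GGCGCC, a GC-rich SMAD-binding sequence that is its own reverse complement.
Papss2, chr19:32595465-32595764, plus strand: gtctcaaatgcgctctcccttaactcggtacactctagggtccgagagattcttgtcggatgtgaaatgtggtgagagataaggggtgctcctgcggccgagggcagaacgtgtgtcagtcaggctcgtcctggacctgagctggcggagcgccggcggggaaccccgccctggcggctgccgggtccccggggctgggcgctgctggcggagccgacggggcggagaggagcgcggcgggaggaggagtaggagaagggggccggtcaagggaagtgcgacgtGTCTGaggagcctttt
Papss1, chr3:131564518-131564817, plus strand: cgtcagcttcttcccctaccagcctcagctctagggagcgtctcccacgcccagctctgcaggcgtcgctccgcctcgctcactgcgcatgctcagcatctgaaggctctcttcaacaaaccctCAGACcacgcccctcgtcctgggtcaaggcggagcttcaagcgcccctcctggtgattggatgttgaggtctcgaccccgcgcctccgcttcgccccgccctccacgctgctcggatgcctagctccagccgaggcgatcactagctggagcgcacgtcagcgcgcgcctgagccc
Hs2st1, chr3:144570167-144570466, minus strand: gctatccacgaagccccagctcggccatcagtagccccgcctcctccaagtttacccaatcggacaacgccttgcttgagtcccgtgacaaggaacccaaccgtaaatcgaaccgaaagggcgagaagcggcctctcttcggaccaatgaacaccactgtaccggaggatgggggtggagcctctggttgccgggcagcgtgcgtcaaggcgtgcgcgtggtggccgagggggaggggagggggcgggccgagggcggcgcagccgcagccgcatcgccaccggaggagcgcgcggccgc
Chst11, chr10:82985247-82985546, plus strand: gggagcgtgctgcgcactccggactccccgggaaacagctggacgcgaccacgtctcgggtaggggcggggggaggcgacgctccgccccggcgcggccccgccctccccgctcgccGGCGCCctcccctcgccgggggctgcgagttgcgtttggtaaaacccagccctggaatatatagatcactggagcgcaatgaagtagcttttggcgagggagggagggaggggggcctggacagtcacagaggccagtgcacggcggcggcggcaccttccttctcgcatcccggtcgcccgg
Chst1, chr2:92600867-92601166, plus strand: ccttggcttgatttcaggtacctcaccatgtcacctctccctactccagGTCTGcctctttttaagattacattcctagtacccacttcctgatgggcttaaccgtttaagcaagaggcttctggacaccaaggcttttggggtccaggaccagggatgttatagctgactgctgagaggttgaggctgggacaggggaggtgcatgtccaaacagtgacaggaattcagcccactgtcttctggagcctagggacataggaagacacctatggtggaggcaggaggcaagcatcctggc
Sulf2, chr2:166155634-166155933, minus strand: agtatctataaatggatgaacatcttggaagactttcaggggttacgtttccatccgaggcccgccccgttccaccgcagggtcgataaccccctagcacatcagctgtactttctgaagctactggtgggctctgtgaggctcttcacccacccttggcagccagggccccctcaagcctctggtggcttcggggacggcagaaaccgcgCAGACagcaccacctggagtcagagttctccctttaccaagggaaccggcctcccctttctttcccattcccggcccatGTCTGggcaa
Windows were found for 34 of the 43 members and for 7 of the 9 that changed, Has2 and Slc26a2 being those without one. CAGAC or GTCTG lay in 4 of the 7 windows of the 5 genes that rose and in 2 of the 3 windows of the 2 genes that fell, beside 49.6% of all 32851 windows. GGCGCC lay in 1 of the 7 windows, that of Chst11, and in 0 of the 3, beside 11.9% of all. The windows of Hs2st1 and Ugdh hold neither, and in the windows not printed Papss2 has 3 matches to CAGAC or GTCTG, Papss1 has 1 and Sulf2 has 0. These shares are a description of letters in the windows and show no binding.

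Among the genes that bring sulphate into the cell and make, move or clear PAPS, the sulphate transporter Slc26a2 and both PAPS synthases rose. Of 7 such members 6 were tested, all 6 had the higher mean after BMP7, and these 3 passed. Their median log2 fold change was 0.90, and over all the settings tried it stayed between 0.77 and 1.09 with all tested members of the list positive in each.

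Slc26a2 is the plasma membrane sulphate and anion exchanger whose loss in humans causes chondrodysplasias with undersulphated cartilage. Its signal on probe set 1421145_at was 542, 463, 639.9 and 659 on Vehicle 1 to 4, and 1475, 2212, 2585 and 1858 on BMP7 1 to 4. Every BMP7 array was above every vehicle array, and the lowest BMP7 value was far above the highest vehicle value. The mean went from 576 ± 91.1 to 2032 ± 476 (SD, n = 4), 3.42-fold higher (log2 fold change 1.77 ± 0.23, SE, adjusted p 0.00311 in limma). Slc26a2 passed without any 1 of the 8 arrays (adjusted p up to 0.0190) and under each of the 13 other settings tried (up to 0.0462). Slc26a1, the related transporter of liver and kidney, was below the filter at 33.8 ± 32.7 in vehicle and 52.8 ± 60.6 in BMP7.

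Papss2 is the PAPS synthase of growing cartilage, mutated in the brachymorphic mouse, and its log2 fold change was the largest among the 35 tested members. On probe set 1434510_at the values were 4218, 6532, 1598 and 998 on Vehicle 1 to 4, and 15124, 10802, 15524 and 8056 on BMP7 1 to 4. The groups did not overlap, although the vehicle arrays spread widely, with Vehicle 3 and 4 low and Vehicle 1 and 2 high. Its mean of 3336 ± 2548 in vehicle became 12376 ± 3587 in BMP7, a ratio of 3.71. On the log2 scale of the fit the rise was 4.61-fold (log2 fold change 2.21 ± 0.50, adjusted p 0.0419 in limma). Both other tested probe sets of Papss2 rose, 1421987_at by a log2 fold change of 2.70 ± 0.39 (adjusted p 0.00465) and 1421989_s_at by 2.96 ± 0.59 (adjusted p 0.0276), and a probe set of type _s_at can bind related transcripts. The fourth, 1421988_at, was below the filter. On 1434510_at the call was lost without Vehicle 1, Vehicle 3 or any 1 of the BMP7 arrays (adjusted p 0.0513 to 0.141), with no filter (0.0573), with no intensity trend (0.0526), with the Actb ratio as a covariate (0.0625) and with the hybridisation controls as a covariate (0.232). On 1421987_at it held without each of the 8 arrays (up to 0.0274) and was lost with the hybridisation controls (0.117).

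As a second view of Papss2, the values of 1421987_at were 1881, 2252, 534 and 1209 on Vehicle 1 to 4, and 8542, 8593, 11169 and 6331 on BMP7 1 to 4. No vehicle array came near the BMP7 range, and the group means of 1469 ± 758 and 8659 ± 1978 were 6.52-fold apart on the log2 scale of the fit.

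Papss1, the PAPS synthase found in most tissues, rose as well. The signal was 3604, 5796, 3729 and 5217 on Vehicle 1 to 4, and 7343, 9252, 10522 and 8970.0 on BMP7 1 to 4. All BMP7 values lay above all vehicle values, BMP7 1 being nearest to them. The means were 4587 ± 1089.6 and 9022 ± 1307, a 1.99-fold rise on the log2 scale of the fit (log2 fold change 0.99 ± 0.21, adjusted p 0.0320 in limma). The call was lost without Vehicle 1 or BMP7 2, 3 or 4 (adjusted p 0.0879 to 0.130) and with the hybridisation controls as a covariate (0.316).

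The remaining members of sulphate handling did not pass the test. Slc35b2, which carries PAPS into the Golgi apparatus, had means of 2928 ± 919 and 5104 ± 1537 (log2 fold change 0.80 ± 0.28, adjusted p 0.131). Impad1, the Golgi phosphatase that clears the by-product PAP, had 8290.5 ± 1311 and 10942 ± 2223 (0.39 ± 0.19, adjusted p 0.261), and its other probe sets gave 0.87 and 0.69, neither past the threshold. Bpnt1, which does the same in the cytosol, had 942 ± 202 and 1329 ± 115 (0.51 ± 0.20, adjusted p 0.179), and its probe set 1418764_a_at gave 1.72 ± 0.68 (adjusted p 0.174). In all 3 genes the BMP7 mean was the higher one, and the groups of the probe sets with the highest mean overlapped.

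**Figure D2:**
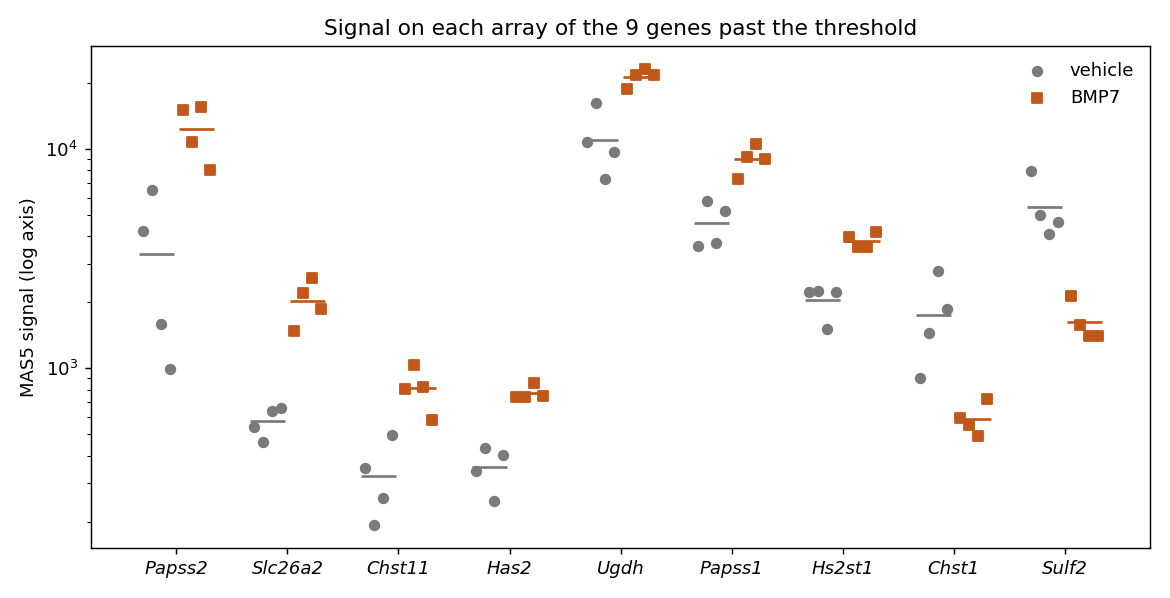
MAS5 signal on each array (logarithmic vertical axis) of the 9 genes past the threshold, with vehicle as grey circles, BMP7 as orange squares and a line at each group mean. In all 9 genes the 4 BMP7 arrays lie on 1 side of the 4 vehicle arrays, and the vehicle values of Papss2 spread from 998 to 6532.

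Sugar nucleotides are the building blocks of the chains, and 1 of the 3 tested genes that make them, Ugdh, rose. Ugdh oxidises UDP-glucose to UDP-glucuronic acid, which every glycosaminoglycan except keratan sulphate needs. Its signals were 10796, 16246, 7287 and 9661 on Vehicle 1 to 4, and 18842, 21770.2, 23256 and 21823 on BMP7 1 to 4. BMP7 1, the lowest of its group, was still above Vehicle 2, the highest of the controls. From 10997 ± 3792 the mean went to 21423 ± 1853, 2.02-fold higher on the log2 scale of the fit (log2 fold change 1.02 ± 0.23, adjusted p 0.0387 in limma). The call was lost without Vehicle 1 or any 1 BMP7 array (adjusted p 0.0718 to 0.139), with no filter (0.0573), with median centring (0.0554), with no intensity trend (0.0568) and with the hybridisation controls as a covariate (0.336).

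Ugp2 makes the UDP-glucose that Ugdh uses, and its probe sets were divided. The probe set with the highest mean, 1451742_a_at, gave 11215, 9965, 2797 and 6719.9 on Vehicle 1 to 4, and 15726, 15979, 16285 and 14026 on BMP7 1 to 4. Here too no vehicle array reached the BMP7 range, and Vehicle 3 was the lowest. Its log2 fold change was 1.19 ± 0.36 (adjusted p 0.0968 in limma), which did not pass, and without Vehicle 3 it did. Of the 4 other probe sets of Ugp2, 1426460_a_at (1.38 ± 0.29, adjusted p 0.0327) and 1434486_x_at (0.93 ± 0.21, adjusted p 0.0419) passed, and 1434485_a_at (1.27 ± 0.34, adjusted p 0.0651) and 1426461_at (0.53 ± 0.20, adjusted p 0.160) did not. Uxs1, which turns UDP-glucuronic acid into the UDP-xylose that starts a chain, stood at 1829.8 ± 324 and 1814 ± 187 (log2 fold change 0.00 ± 0.19), its second probe set gave -0.02 ± 0.20, and its sign changed with the scaling of the arrays.

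**Figure D3:**
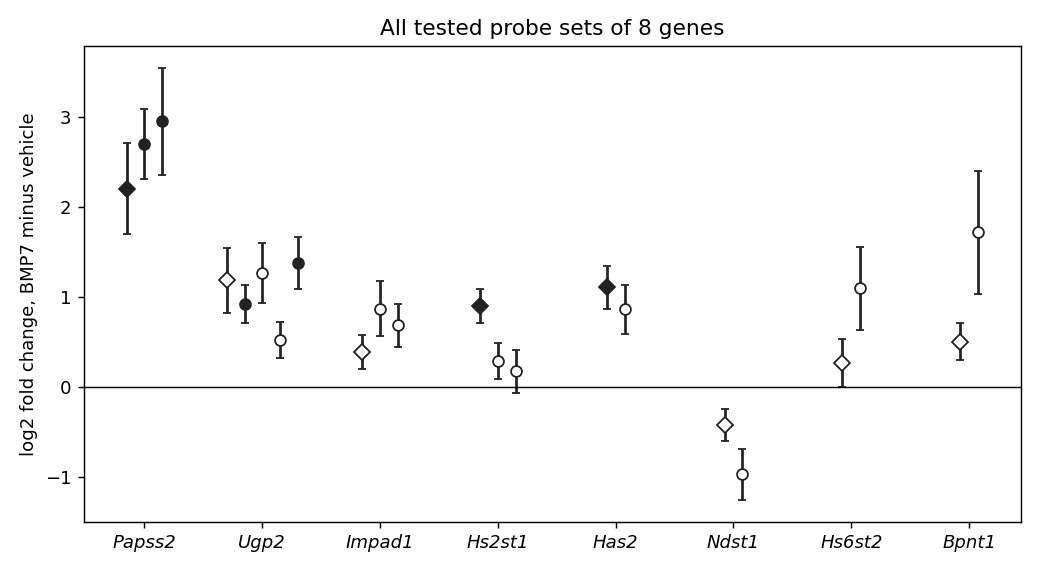
Log2 fold change (BMP7 minus vehicle, with the standard error) of every tested probe set of 8 genes with more than 1 tested probe set, a diamond for the probe set that represents the gene and a circle for the others, filled where past the threshold. All 3 of Papss2 and 2 of the 5 of Ugp2 are filled, while Hs2st1 and Has2 have only 1 filled probe set each.

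The tetrasaccharide linkage that joins every heparan and chondroitin chain to its core protein showed no called change. Xylt2, the xylosyltransferase that begins it, was below the filter at 249 ± 151 in vehicle and 248 ± 28.1 in BMP7. B4galt7 (503 ± 69.9 and 569.8 ± 87.3) and B3gat3 (1066 ± 404 and 1178 ± 312), which add the first galactose and the closing glucuronic acid, had log2 fold changes of 0.17 and 0.19, and a second probe set of B3gat3 gave -0.37 ± 0.32 (adjusted p 0.514). B3galt6, which adds the second galactose, had 1.07 ± 0.57 (adjusted p 0.297 in limma), with 554, 653, 69.8 and 514 on Vehicle 1 to 4 and 481, 750.5, 915 and 941 on BMP7 1 to 4. The groups of B3galt6 overlapped, and Vehicle 3 was far below the other vehicle arrays.

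The polymerases of the heparan sulphate chain differed little between the groups, with 0 of 4 tested genes called and a median log2 fold change of 0.14. Ext1 and Ext2, the partners of the copolymerase, had log2 fold changes of 0.14 ± 0.17 and 0.30 ± 0.26. Extl3, which attaches the first glucosamine and so commits a chain to heparan sulphate, had 0.14 ± 0.21. Extl2, which can cap a chain after its linkage, was at 2440.5 ± 435 in vehicle and 1834 ± 109.5 in BMP7 (-0.40 ± 0.18, adjusted p 0.237); its groups did not overlap on this probe set, and its other probe set gave 0.04. Extl1 was below the filter at 279.9 ± 129 and 247 ± 66.5.

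Among the enzymes that modify heparan sulphate 1 of 8 tested genes changed, and the median log2 fold change was -0.05, with a sign that depended on the setting. Hs2st1, which places sulphate on the uronic acid of heparan sulphate, rose. The signal of 1450729_at was 2237, 2253, 1507 and 2234 on Vehicle 1 to 4, and 3956, 3577, 3579 and 4175 on BMP7 1 to 4. The BMP7 arrays formed a narrow band above all vehicle arrays, and Vehicle 3 stood below the 3 other controls. The means of 2058 ± 367 and 3822 ± 295 were 1.87-fold apart on the log2 scale of the fit (log2 fold change 0.90 ± 0.19, adjusted p 0.0323 in limma).

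The rise of Hs2st1 was seen on 1 of its 3 probe sets. The others, 1450730_at and 1422739_at, gave log2 fold changes of 0.29 ± 0.20 (adjusted p 0.399) and 0.18 ± 0.24 (adjusted p 0.689), and the mean of the probe sets did not pass (adjusted p 0.101). The call on 1450729_at was lost without Vehicle 1 or any 1 BMP7 array (adjusted p 0.0669 to 0.113) and with the hybridisation controls as a covariate (0.380).

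The N-deacetylase/N-sulphotransferases open the modification of heparan sulphate, and none of them was called. Ndst1, the main one of most mouse tissues, had means of 8881 ± 1242 and 6645 ± 969 (log2 fold change -0.42 ± 0.18, adjusted p 0.207 in limma), and 1428367_at, another of its probe sets, had 2778 ± 1454 and 1305 ± 102 (-0.97 ± 0.28, adjusted p 0.0889). On 1428367_at the values were 1978, 2076, 4958 and 2101 on Vehicle 1 to 4 and 1310.0, 1272, 1440.5 and 1196 on BMP7 1 to 4, so that the groups did not overlap and Vehicle 3 was the highest. Ndst1 passed as lower in 2 of the settings tried, with array weights and with the mean of its probe sets. Ndst2 (-0.07 ± 0.21) and Ndst4 (-0.04 ± 0.30) were close to 0, and Ndst3 was below the filter at 159 ± 28.2 and 116 ± 62.2.

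The epimerase and the other sulphotransferases of heparan sulphate did not pass either. Glce, which epimerises glucuronic to iduronic acid ahead of Hs2st1, had 1685 ± 223 and 2111 ± 269 (log2 fold change 0.32 ± 0.18, adjusted p 0.324 in limma). Hs6st1 and Hs6st2, which sulphate the glucosamine, had log2 fold changes of -0.06 ± 0.23 and 0.27 ± 0.27. Hs6st2 ran from 6159.9 to 13679 in vehicle and from 8667 to 13829 in BMP7, so that its groups overlapped, and its probe set 1420938_at gave 1.10 ± 0.46 (adjusted p 0.198). Hs3st3b1, of the family whose sulphate is added last and most sparsely, had -0.12 ± 0.27, and its relatives Hs3st1 (268 ± 104 and 205 ± 129.8) and Hs3st3a1 (22.2 ± 5.28 and 60.4 ± 35.8) were below the filter.

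Sulf2, the secreted endosulphatase that removes glucosamine sulphate from finished heparan sulphate outside the cell, fell. Its signals were 7972, 5009, 4121 and 4638 on Vehicle 1 to 4, and 2133, 1572, 1398 and 1398 on BMP7 1 to 4. The highest BMP7 array lay well below the lowest vehicle array. The mean dropped from 5435 ± 1730.1 to 1625 ± 348, 3.26-fold lower on the log2 scale of the fit (log2 fold change -1.71 ± 0.24, adjusted p 0.00447 in limma). Sulf2 passed without any 1 of the 8 arrays (adjusted p up to 0.0271) and in each of the 12 other settings in which it was tested (up to 0.0386). The gene has 1 probe set, 1430388_a_at, of the type that matches several transcripts of a gene, and Sulf1, the other endosulphatase, was not analysed here.

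Of the 6 tested genes of chondroitin and dermatan sulphate, 5 had the higher mean after BMP7 and 1, Chst11, rose. Their median log2 fold change was 0.73, between 0.64 and 0.80 over the settings tried. Chst11 is the chondroitin 4-O-sulphotransferase that mouse growth plates need for their normal order. Its signal was 352, 193, 256 and 495 on Vehicle 1 to 4, and 803, 1039, 824 and 584 on BMP7 1 to 4. The groups did not overlap, with BMP7 4 the nearest to Vehicle 4. The means of 324 ± 131 and 813 ± 186 were 2.52-fold apart on the log2(signal + 16) scale (log2 fold change 1.34 ± 0.31, adjusted p 0.0453 in limma).

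The call of Chst11 was the least stable of the 9. It held without Vehicle 4 and was lost without each of the other 7 arrays (adjusted p 0.0506 to 0.149), with no filter (0.0753), with the replicate number as a block (0.0619), with the Actb ratio as a covariate (0.0654) and with the hybridisation controls as a covariate (0.508).

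The other chondroitin genes did not pass. Chst7, a chondroitin 6-O-sulphotransferase, had means of 1209.7 ± 475 and 2373 ± 693 (log2 fold change 0.99 ± 0.29, adjusted p 0.0916 in limma), and Chst12, a second 4-O-sulphotransferase, had 813 ± 301 and 1354 ± 168 (0.80 ± 0.28, adjusted p 0.135). The groups of Chst12 did not overlap and those of Chst7 did. Csgalnact1, which places the first N-acetylgalactosamine and so commits a chain to chondroitin, had 2889.8 ± 1154 and 4448 ± 1279 (0.66 ± 0.28, adjusted p 0.211), and its second probe set gave 0.77. Its relative Csgalnact2 had -0.25 ± 0.26, the 1 negative value of the list, and Chpf, the chondroitin polymerising factor, had 0.33 ± 0.26. Chst3, the main 6-O-sulphotransferase of human cartilage, was below the filter at 53.5 ± 14.4 and 48.8 ± 7.86. Its only probe set, 1460322_at, is placed on chromosome 9 in the deposited annotation, and the RefSeq window of Chst3 lies on chromosome 10. Whether this probe set reads Chst3 is therefore uncertain.

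Chst1, the galactose 6-O-sulphotransferase of keratan sulphate, fell. Its signals were 901, 1450.3, 2786 and 1862 on Vehicle 1 to 4, and 594, 550.5, 490.5 and 726 on BMP7 1 to 4. All BMP7 arrays lay below all vehicle arrays, and Vehicle 3 was the highest. The mean went from 1749.8 ± 795 to 590.2 ± 99.9, a ratio of 0.337 for BMP7 over vehicle. On the log2 scale of the fit it was 2.72-fold lower (log2 fold change -1.44 ± 0.31, adjusted p 0.0351 in limma). The call was lost without Vehicle 2 or any 1 BMP7 array (adjusted p 0.0647 to 0.128), with no filter (0.0502) and with the hybridisation controls as a covariate (0.401). Chst2, which sulphates N-acetylglucosamine, had 636 ± 203 and 682 ± 24.0 (0.16 ± 0.27, adjusted p 0.758), with a sign that changed in 4 of the settings tried.

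Of the hyaluronan synthases, Has2 rose. Has2 is the hyaluronan synthase that the heart and limbs of the mouse embryo need. On 1418678_at the signal was 339.8, 434, 247 and 403 on Vehicle 1 to 4, and 740.1, 741, 861 and 746 on BMP7 1 to 4. The BMP7 arrays were almost equal among themselves and all above the vehicle arrays. The means of 356 ± 82.5 and 772 ± 59.4 were 2.16-fold apart on the log2 scale of the fit (log2 fold change 1.11 ± 0.24, adjusted p 0.0351 in limma).

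A second probe set of Has2, 1449169_at, had 247 ± 36.2 and 467 ± 102 with groups that did not overlap, and did not pass (log2 fold change 0.87 ± 0.27, adjusted p 0.102). The call on 1418678_at was lost without Vehicle 1 or any 1 BMP7 array (adjusted p 0.0756 to 0.139), with no filter (0.0644) and with the hybridisation controls as a covariate (0.393). Has1 had means of 433 ± 67.4 and 482 ± 255 (-0.11 ± 0.49, adjusted p 0.919), where BMP7 1 read 105 and the other BMP7 arrays 549 to 642. Has3 was below the filter at 55.8 ± 10.7 and 63.4 ± 31.1.

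**Figure D4:**
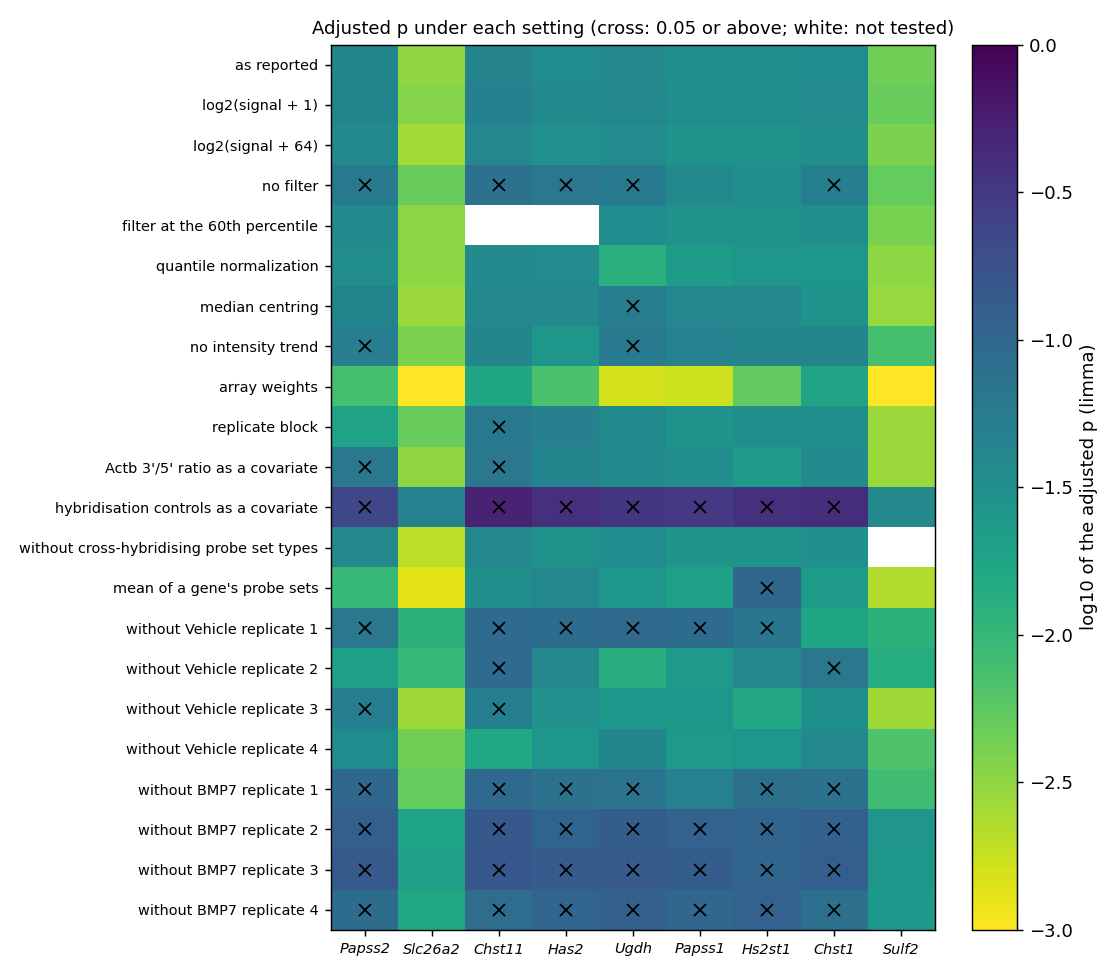
Adjusted p in limma (colour, on a log10 scale) of the 9 genes that changed, by setting (vertical) and gene (horizontal), with a cross where it was 0.05 or above and white where the gene was not tested. Slc26a2 and Sulf2 carry no cross, and the other 7 genes carry crosses in most lines that leave out a BMP7 array and in the line with the hybridisation controls as a covariate.

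In the authors' deposited table, whose p-value is not adjusted for multiple tests, 13 of the 35 tested members had a p-value under 0.05, beside 15.7% of all tested probe sets. These included 8 of the 9 genes that passed here, all but Chst1, for which the authors' deposited table gives 0.0605. Of the 14 members with more than 1 tested probe set, 11 had tested probe sets of 1 sign. Over all 55 tested probe sets of the members, 11 were called higher and 2 lower. Groups that did not overlap were found in 12 of the 35 members, beside 15.4% of all tested probe sets. Of these 9 were higher after BMP7, beside 8.30% of probe sets, and 3 lower, beside 7.10%. The 3 that did not overlap and did not pass were Extl2, Chst12 and Ugp2.

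Genes that work beside these enzymes were read from 4 further lists, of which 51 genes were tested, 2 rose and 6 fell, with a median log2 fold change of -0.05. With 1 probe set per gene, 1.58% of 8330 tested genes were called higher and 1.78% lower. These shares stand beside the counts of each list here and below. In the list of other glycosaminoglycan enzymes 0 of 12 tested genes passed in limma and 0 had an unadjusted p under 0.05, beside 21.8% of tested probe sets. The hexosamine pathway genes Gfpt1 (0.64, adjusted p 0.260), Gnpnat1 (0.69, adjusted p 0.316) and Uap1 (0.45, adjusted p 0.254), which supply the amino sugars, belong to it. Other tested probe sets gave 1.06 and -0.34 for Gnpnat1 and 0.06 and -0.03 for Uap1, none past the threshold.

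Core proteins that carry the chains were tested for 23 genes, of which 1 rose and 3 fell. Gpc6, a membrane-anchored heparan sulphate proteoglycan, read 1151, 1349, 2189 and 1170.4 on Vehicle 1 to 4 and 2815, 2760.1, 3737 and 2536 on BMP7 1 to 4. The groups did not overlap, and Gpc6 rose by a log2 fold change of 1.04 ± 0.24 (adjusted p 0.0425 in limma), a call lost without Vehicle 1, Vehicle 2 or any 1 BMP7 array (0.0826 to 0.154). It was also lost with no filter (0.0524), quantile normalization (0.0554), median centring (0.0766), no intensity trend (0.0523) and the mean of its probe sets (0.124). The second probe set of Gpc6, 1419689_at, gave a log2 fold change of 0.53 ± 0.37 (adjusted p 0.427 in limma). Lum, the keratan sulphate proteoglycan lumican, read 1396, 1849.8, 1797 and 1971 on Vehicle 1 to 4 and 315, 408, 604 and 304 on BMP7 1 to 4. Lum fell by 2.10 on the log2 scale (adjusted p 0.00255), and no array of 1 group reached the range of the other. Dcn, which carries a single chondroitin or dermatan chain, and Col18a1, a basement membrane collagen with heparan sulphate chains, also fell, with log2 fold changes of -2.31 (adjusted p 0.00207) and -2.11 (adjusted p 0.0186), and the call of Col18a1 was lost without BMP7 2, 3 or 4 (0.0560 to 0.0797) and with the hybridisation controls as a covariate (0.298). The large aggregating proteoglycans Vcan (-0.68, adjusted p 0.219) and Acan (0.81, adjusted p 0.398) did not pass.

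Lysosomal and extracellular breakdown enzymes were tested for 12 genes, of which 0 rose, with a median log2 fold change of -0.24. Naglu, a lysosomal enzyme of heparan sulphate breakdown, had means of 1834.7 and 1128 (log2 fold change -0.67, adjusted p 0.0915 in limma) and did not pass.

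Among proteins that bind hyaluronan 4 of 12 genes with a probe set were tested, 1 rose and 2 fell. Hmmr, an intracellular and surface hyaluronan receptor also known as a mitotic spindle protein, had means of 1325 ± 263 and 2529.5 ± 209 (log2 fold change 0.95 ± 0.20, adjusted p 0.0332 in limma). The other probe sets of Hmmr gave log2 fold changes of 1.19, 1.20 and 1.87, and none of them passed. Tnfaip6, which moves the heavy chains of inter-alpha-trypsin inhibitor onto hyaluronan, fell from 1399 ± 571 to 467 ± 249 (-1.58 ± 0.37, adjusted p 0.0446), and Itih2, the gene of such a heavy chain, fell from 791 ± 159 to 322 ± 82.0 (-1.27 ± 0.27, adjusted p 0.0332). In all 3 the groups did not overlap, and each call was lost without Vehicle 1 or BMP7 2, 3 or 4, those of Tnfaip6 and Itih2 also without Vehicle 2, and those of Hmmr and Itih2 also without BMP7 1 (adjusted p 0.0565 to 0.149). All 3 were lost with the hybridisation controls as a covariate (0.0979 to 0.316), Tnfaip6 and Itih2 with no filter (0.0660 and 0.0589), and Hmmr with the mean of its probe sets (0.0573). Hapln1, the link protein that fastens aggrecan to hyaluronan, was below the filter with 24.2, 90.4, 6.0 and 5.8 on Vehicle 1 to 4 and 253, 361, 1250.3 and 226 on BMP7 1 to 4. All BMP7 values of Hapln1 were above all vehicle values, and the gene was not tested.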

How the data were processed

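Total RNA of 4 vehicle-treated and 4 BMP7-treated samples was measured on 1 array each. The authors deposited an intensity per probe set on a linear scale, and per the submitters' processing notes the tool was MAS5. The scaling target, annotation release and version were not given in the sources used here. Each array had a mean signal without the highest and lowest 2% of 1500.4 to 1500.7. The authors also deposited group means, a p-value and a ratio of the means, per the file headers, and the means match those of the labelled arrays within 0.01. Another 8 per-sample columns, which carry array codes in place of titles, were not used. For arrays, their number, 4 in each group, limits the precision.

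Of the probe sets other than 64 controls, 21453 carry 1 gene, 482 several and 691 none. Symbols were updated through RefSeq's gene table (GRCm38.p6): 20828 matched by Entrez identifier, 184 by a synonym, and 441 kept the file's symbol. A gene was represented by its probe set with the highest mean over the 8 arrays. For members, other tested probe sets are given where their sign or call differed or their log2 fold change was over 0.5 away. For marker genes and the further lists they are given only for some genes.

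The deposited intensity was analysed here as log2(signal + 16), which makes the fold changes of low signals too small. The filter kept the 13576 probe sets whose mean log2 value reached the 40th percentile, 8.41 or a signal near 325. Groups were compared with limma 3.58.1 in R 4.3.3 (lmFit, eBayes with an intensity trend, two-sided, no covariate), and a probe set was called at a Benjamini-Hochberg adjusted p under 0.05 over everything tested. The median standard error was 0.25 on the log2 scale. The fit was tested on simulated data with known changes and the same spread in both groups. The vehicle arrays in fact spread more than the BMP7 arrays, so the simulation does not cover that difference. Alternatives were other pseudocounts, filters, scalings, covariates, array weights, a replicate block, other choices of probe set and leaving out each array.

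The members, gene lists and tests were chosen with earlier results of these data known. All members are described; values on every array are given for members past the threshold, for Ugp2, and for members singled out after their values were seen. Of the other lists, at most 3 called rises and 3 called falls are named, further genes being chosen after their values were seen. The results for 2 genes of these lists are not reported here. Replicate numbers were not taken to pair the samples. Deviations of same-numbered arrays from their group means correlated at 0.38, 0.04, 0.15 and 0.19. Those of a vehicle and a BMP7 array of different number correlated at -0.22 to 0.11. Results with the replicate number as a block are given below.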

Additional observations from a re-analysis of the deposited data

Results flagged for a closer look

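In 86 groups of 4 arrays, 1 array stood apart from the other 3 by Dixon's test at the 95% level in 7, and chance gives about 1 in 20. Vehicle 3 read 69.8 for B3galt6, where the other vehicle arrays read 513.9 to 653.1, and 1506.7 for Hs2st1, where they read 2233.7 to 2252.9. Vehicle 2 read 423.7 for Hs3st1 (others 214.0 to 218.1), and Vehicle 1 read 14.4 for Hs3st3a1 (others 24.1 to 25.8), both genes below the filter. Among BMP7 arrays, BMP7 1 read 105.0 for Has1 (others 548.6 to 642.5), BMP7 3 read 860.8 for Has2 (others 740.1 to 745.6) and BMP7 4 read 439.2 for B4galt7 (others 604.5 to 619.6). Without Vehicle 3 the log2 fold change of Hs2st1 was 0.76 (adjusted p 0.0153 in limma).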

How the results depend on the processing

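No member that changed reversed its direction in any setting tried, and Slc26a2 and Sulf2 passed in every setting in which they were tested. The 7 members that rose became 3 with no filter, 11 with array weights and 1 with the hybridisation controls as a covariate, and 1 to 7 when an array was left out: 1 without Vehicle 1, BMP7 2, BMP7 3 or BMP7 4, and 2 without BMP7 1. The 2 that fell became 1 with no filter, with the hybridisation controls, and without probe sets of types _x_at, _s_at and _a_at (which removes that of Sulf2), and 1 to 2 with an array left out: 1 without Vehicle 2 or any 1 BMP7 array. All called probe sets, 425, became 1778 with array weights, 50 with the hybridisation controls and 90 to 1084 with an array left out, the lowest without BMP7 3 and the highest without Vehicle 4. The 8 called genes of the 4 further lists became 5 with no filter or with a filter at the 60th percentile, 15 with array weights, 3 with the hybridisation controls and 2 to 9 with an array left out, the lowest without BMP7 2, 3 or 4. With array weights Chst7, Csgalnact1, Slc35b2 and Ugp2 rose and Ndst1 fell as well. With the replicate number as a block, 652 probe sets were called, 6 members rose and 2 fell, Chst11 being lost, and the other members kept their calls. In deviations from the group means, every array except BMP7 2 correlated best with the array of its own number in the other group. The median over all tested probe sets shifted from 0.04 to -0.05 with median centring. The cause of these differences was not tested.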
